A study of Mus musculus with 24 samples.

Results

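Transforming growth factor beta (TGF-beta) was followed here through 10 genes of the mouse: the ligand genes Tgfb1, Tgfb2 and Tgfb3, the receptor genes Tgfbr1, Tgfbr2 and Tgfbr3, and the genes of the latent TGF-beta binding proteins (LTBPs), Ltbp1, Ltbp2, Ltbp3 and Ltbp4. The members were a written list of symbols, chosen by family and not by their values, and each symbol matched a single gene ID. They made up 10 of the 56205 genes in the deposited count table, and all 10 were among the 17913 genes tested. The libraries came from poly(A) RNA of whole liver of C57BL/6J mice that had been 8 to 10 weeks old when they were placed on a diet for 20 weeks. In 12 of the libraries the diet was high in fat and held palm oil, fructose and cholesterol, a feed used to induce steatohepatitis, and in the other 12 it was the matching control diet. The labels name no transgene or deletion, and diet was the only labelled difference. The design text gives 6 mice of each sex on each diet, and the labels do not give the sex of a library. They number the libraries within a diet and do not state that each is a separate animal, so p-values measure the spread between these libraries.

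The TGF-beta ligands are made as pro-proteins that stay bound to their cleaved propeptide, and this latent complex is linked by disulfide bonds to an LTBP and stored on fibrillin and fibronectin fibres. Integrins, proteases or thrombospondin release the ligand, which binds the type II receptor (Tgfbr2), and that receptor phosphorylates the type I receptor (Tgfbr1), which in turn phosphorylates Smad2 and Smad3. The type III receptor betaglycan (Tgfbr3) has no kinase and presents ligand, TGF-beta 2 above all, to the type II receptor. In liver, TGF-beta is best known for turning stellate cells into matrix-producing myofibroblasts and for restraining hepatocyte growth.

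Depth was 16490817 to 21213070 gene counts for the high-fat diet libraries and 14468418 to 22112552 for the control libraries. Levels are given as CPM, the count scaled to a common library total after TMM scaling, and 3 counts corresponded on average to 0.148 CPM in a high-fat diet library and 0.175 CPM in a control library. In both diets replicates 1 to 6 had 2664 to 6285 counts of Xist, the RNA of the inactive X chromosome, and replicates 7 to 12 had 0 to 3. The Y-linked gene Ddx3y gave the opposite picture, with 0 counts in the first set and 448 to 1016 in the second. These are called the libraries with Xist above or below 1000 counts. Some libraries stood at an extreme for several members. High-fat diet replicate 3 was the lowest of its diet for Tgfb2, Tgfbr2, Ltbp1, Ltbp2, Ltbp3 and Ltbp4. High-fat diet replicate 9 was the highest of its diet for Tgfb2, Tgfb3, Tgfbr1, Ltbp2, Ltbp3 and Ltbp4, and control replicate 10, which had the lowest depth and the lowest TMM factor of 0.679, was the lowest of its diet for Tgfb1, Tgfbr1, Tgfbr2, Tgfbr3, Ltbp1 and Ltbp3.

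The 3 ligand genes and the LTBP genes Ltbp1, Ltbp2 and Ltbp3 were higher on the high-fat diet, by a log2 fold change of 1.07 for Ltbp1 to 2.49 for Tgfb2. No receptor gene passed both thresholds, and neither did Ltbp4. A call required that the adjusted p in edgeR's quasi-likelihood test did not exceed 0.01 and that the log2 fold change was over 0.5 in size. By that rule 6 of the 10 members were called higher and 0 lower, while 13.2% of all tested genes were called higher and 4.99% lower. The median log2 fold change of the 10 members was 1.18, against -0.03 over all tested genes. The fitted change was above 0 for 9 members and below 0 for Tgfbr3. In no member were all 12 high-fat diet libraries above all 12 control libraries, a separation that 1.48% of tested genes showed. Because whole liver was sequenced, fewer cells of a type and less RNA per cell cannot be told apart in any of these values.

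**Figure D1:**
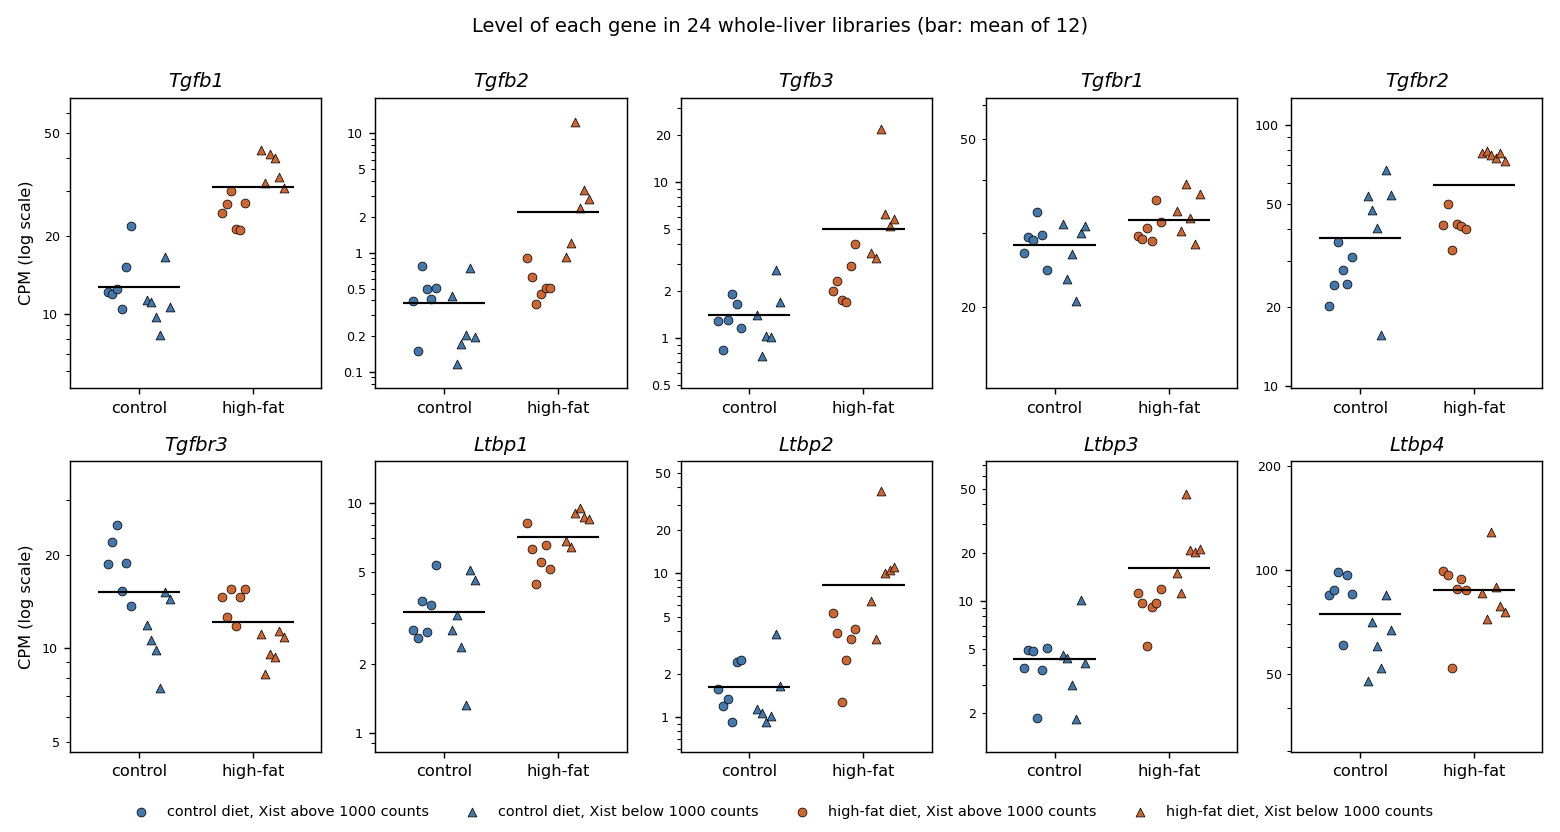
Level of each of the 10 genes in each of the 24 libraries, in CPM on a log axis, with a panel for each gene; points are libraries, split by diet and by set (Xist above or below 1000 counts), and bars mark the mean of the 12 libraries of a diet. The high-fat diet points lie furthest above the control points for Tgfb2, Ltbp2 and Tgfb3 in the libraries with Xist below 1000 counts, and the diets overlap in every panel when the sets are pooled.

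The positions are those of GENCODE M21 on GRCm38, the build that the submitters' processing notes call mm10. Among the ligand genes, Tgfb1 (ENSMUSG00000002603) lies on the plus strand at chr7:25687002-25705077, Tgfb2 (ENSMUSG00000039239) on the minus strand at chr1:186622792-186705989, and Tgfb3 (ENSMUSG00000021253) on the minus strand at chr12:86056745-86079041. Of the receptor genes, Tgfbr1 (ENSMUSG00000007613) is at chr4:47353222-47414931 on the plus strand, while Tgfbr2 (ENSMUSG00000032440) at chr9:116084293-116175360 and Tgfbr3 (ENSMUSG00000029287) at chr5:107106570-107289629 are on the minus strand. Ltbp1 (ENSMUSG00000001870) at chr17:75005568-75392512 and Ltbp3 (ENSMUSG00000024940) at chr19:5740904-5758532 are on the plus strand, and Ltbp2 (ENSMUSG00000002020) at chr12:84783212-84876532 and Ltbp4 (ENSMUSG00000040488) at chr7:27305136-27337692 are on the minus strand. Tgfb1 and Ltbp4 thus lie on chromosome 7, and Tgfb3 and Ltbp2 on chromosome 12, in both cases more than a megabase apart. Exons of Ltbp2, Tgfb2, Tgfb3 and Tgfbr3 share bases with another annotated gene. The shared part was largest for Ltbp2, where 764 bases or 9.34% of its exonic length face D030025P21Rik on the other strand. For Tgfb3 it was 7.6% with Gm48008 and 4.82% with Gm37804, and for Tgfb2 2.14% with Gm29491, all on the other strand. For Tgfbr3 it was 4.54% with Gm43422 on the same strand. Whether the counting used strand is not given in the sources used here, so reads in those bases cannot be told apart between the genes.

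The 250 bases before the start site are printed for 5 members, since they set side by side a ligand gene expressed broadly, a ligand gene and LTBP genes with a large difference, and the receptor gene whose call depended on the settings. They come from the RefSeq promoter table on GRCm38.p6, which held 12 start sites for 8 of the 10 members and none for Tgfb3 and Tgfbr3. Each runs 5′ to 3′ on the strand of its gene and ends at the base before the start. Capitals mark matches, on either strand, to the TATA box TATAAA, the GC box GGGCGG, the CCAAT box CCAAT, the E-box CACGTG, the cAMP response element TGACGTCA, the AP-1 motif TGANTCA, the Smad palindrome GTCTAGAC and the TEAD motif GGAATG.
Tgfb1, chr7:25686752-25687001, plus strand: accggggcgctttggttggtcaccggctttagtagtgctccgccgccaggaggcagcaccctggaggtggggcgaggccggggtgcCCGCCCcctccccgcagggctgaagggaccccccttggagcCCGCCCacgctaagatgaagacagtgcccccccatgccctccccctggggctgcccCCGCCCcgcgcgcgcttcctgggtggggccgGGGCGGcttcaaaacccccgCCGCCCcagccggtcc
Tgfb2, chr1:186705990-186706239, minus strand: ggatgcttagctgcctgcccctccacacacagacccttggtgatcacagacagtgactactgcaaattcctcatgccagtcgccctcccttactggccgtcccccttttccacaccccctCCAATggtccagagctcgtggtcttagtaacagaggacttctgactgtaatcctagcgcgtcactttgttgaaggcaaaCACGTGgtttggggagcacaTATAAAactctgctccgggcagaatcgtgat
Tgfbr2, chr9:116175364-116175613, minus strand: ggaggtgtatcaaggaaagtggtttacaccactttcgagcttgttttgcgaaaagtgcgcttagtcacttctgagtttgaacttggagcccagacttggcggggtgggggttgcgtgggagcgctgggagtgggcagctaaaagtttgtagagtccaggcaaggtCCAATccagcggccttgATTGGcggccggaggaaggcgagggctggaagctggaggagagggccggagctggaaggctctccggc
Ltbp2, chr12:84876492-84876741, minus strand: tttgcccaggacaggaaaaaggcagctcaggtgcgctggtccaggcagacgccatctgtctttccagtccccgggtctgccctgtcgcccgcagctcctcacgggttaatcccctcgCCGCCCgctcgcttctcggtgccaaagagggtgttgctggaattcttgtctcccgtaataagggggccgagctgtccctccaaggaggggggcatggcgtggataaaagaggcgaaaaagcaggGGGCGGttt
Ltbp3, chr19:5740650-5740899, plus strand: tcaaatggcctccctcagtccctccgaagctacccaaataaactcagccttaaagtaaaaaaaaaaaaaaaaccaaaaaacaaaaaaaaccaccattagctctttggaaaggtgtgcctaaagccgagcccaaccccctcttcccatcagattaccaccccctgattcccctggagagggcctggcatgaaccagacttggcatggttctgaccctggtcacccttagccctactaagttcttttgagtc
The Tgfb1 window was 75.2% G or C and held 5 GC boxes with no TATA box, whereas the Tgfb2 window was 53.6% G or C and held a TATA box that begins at position -31, an E-box and a CCAAT box. The median over the 32851 promoters of the table was 52.4% G or C. Of those promoters 12.4% held TATAAA, 32.7% GGGCGG, 33.8% CCAAT and 6.02% CACGTG. The Tgfbr2 window held CCAAT boxes, the Ltbp2 window held GC boxes, and the Ltbp3 window held none of the motifs searched. No printed window held the AP-1 motif, the Smad palindrome, the TEAD motif or the cAMP response element, which 6.75%, 0.167%, 12.6% and 1.55% of the promoters held. These are matches of letters and not evidence of binding.

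Of the ligand genes, Tgfb1 had the highest level and the smallest fitted change. TGF-beta 1 is the isoform made by macrophages, platelets and many other cells, and the one most studied in fibrosis. Tgfb1 measured 21.03 to 43.0 CPM (median 30.3) in the high-fat diet libraries and 8.25 to 21.8 CPM (median 11.6) in the control libraries. Control replicate 6 was the highest control library, and 10 of the 12 high-fat diet libraries lay above it, while all 12 lay above the next highest control library. The mean was 31.0 ± 7.52 CPM (SD, n = 12) against 12.6 ± 3.68 CPM (n = 12), a log2 fold change of 1.29 ± 0.14 (SE) with an adjusted p of 6.35e-07 by edgeR's quasi-likelihood test after Benjamini-Hochberg adjustment. The two-sided permutation test on log2(CPM + 1) returned p = 2e-05, the smallest that its 100000 resamples can give.

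Tgfb2 was the least expressed of the 10 genes and had the largest fitted change. TGF-beta 2 differs from the other isoforms in that it needs betaglycan for high-affinity binding. The high-fat diet libraries held 7 to 293 counts of it (median 18) and the control libraries 2 to 16 (median 7.5). On the CPM scale this was 0.373 to 12.4 with a median of 0.907 against 0.118 to 0.769 with a median of 0.402. In 5 control libraries the count was at most 3, so the control level rests on few counts. The high-fat diet mean of 2.20 ± 3.37 CPM (SD, n = 12) was pulled up by replicate 9, and 7 high-fat diet libraries lay above the highest control library. The log2 fold change was 2.49 ± 0.54 (SE; adjusted p = 0.000798, edgeR), and the permutation test gave p = 0.0008. Without high-fat diet replicate 9 it was 1.72 (adjusted p = 0.00183, edgeR).

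Tgfb3, the isoform known from palate closure and scarless repair, lay between the other ligand genes. Its level was 1.69 to 21.8 CPM (median 3.39) on the high-fat diet and 0.766 to 2.72 CPM (median 1.29) on the control diet. The highest value was again that of replicate 9, and the lowest high-fat diet libraries lay within the control range: 8 libraries exceeded the highest control library, replicate 11, and 10 exceeded the next. The log2 fold change was 1.85 ± 0.36 (SE; adjusted p = 0.000271, edgeR; permutation p = 6e-05), and it was 1.35 without high-fat diet replicate 9. Among the ligands the fitted change over all 24 libraries therefore ran opposite to the level. The same order held with Xist below 1000 counts (1.72 for Tgfb1, 2.41 for Tgfb3 and 3.59 for Tgfb2). It did not hold with Xist above 1000 counts (0.84 for Tgfb1, 0.87 for Tgfb3 and 0.30 for Tgfb2).

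None of the 3 receptor genes was called. Tgfbr1, the type I receptor kinase also known as ALK5, varied least of all members between libraries. It measured 28.2 to 39.1 CPM on the high-fat diet (median 31.3) and 20.7 to 33.7 CPM on the control diet (median 29.2), and only 4 high-fat diet libraries exceeded the highest control library. Its log2 fold change was 0.20 ± 0.08 (SE; adjusted p = 0.0357, edgeR), with a 95% interval of 0.05 to 0.35. Scaled by library totals alone it was 0.49 (adjusted p = 0.000525, edgeR), just under the fold threshold.

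Tgfbr2, the type II receptor that binds ligand first, was the receptor gene nearest to a call. Its level was 33.3 to 79.6 CPM (median 61.4) on the high-fat diet and 15.7 to 67.2 CPM (median 33.3) on the control diet. The high-fat diet libraries formed separate groups by set, at 33.3 to 49.6 CPM in those with Xist above 1000 counts and at 73.1 to 79.6 CPM in the rest. In the control libraries the corresponding ranges were 20.3 to 35.5 CPM and 15.7 to 67.2 CPM, the lowest of these being control replicate 10. The log2 fold change was 0.68 ± 0.21 (SE), with an adjusted p of 0.0134 in edgeR's test, just above the threshold. A fit with a term for the set gave 0.66 with an adjusted p of 0.000471 (edgeR), and 7 of the 10 members were called higher in that fit, against 13.5% of all tested genes. Without control replicate 11, the highest control library, it was 0.79 with an adjusted p of 0.00366.

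Tgfbr3, the co-receptor betaglycan, was the only member with a fitted change below 0. It measured 8.24 to 15.6 CPM on the high-fat diet (median 11.6) and 7.43 to 24.95 CPM on the control diet (median 14.8), so the high-fat diet libraries lay inside the control range. The log2 fold change was -0.33 ± 0.16 (SE; adjusted p = 0.093, edgeR; permutation p = 0.105), with a 95% interval of -0.64 to -0.03. Scaled by library totals alone it was -0.08.

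The LTBP genes differed among themselves. Ltbp1, which can bind the latent form of every TGF-beta isoform, was 4.42 to 9.46 CPM on the high-fat diet (median 6.70) and 1.32 to 5.35 CPM on the control diet (median 3.03). As for Tgfb1, 10 of the 12 high-fat diet libraries exceeded the highest control library, which was again replicate 6. Its log2 fold change of 1.07 ± 0.17 (SE; adjusted p = 3.40e-05, edgeR; permutation p = 2e-05) was the smallest among the members called.

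Ltbp2 is the LTBP that does not bind latent TGF-beta and is known for its part in elastic fibres and fibrillin microfibrils. It was 1.28 to 37.5 CPM on the high-fat diet (median 4.70) and 0.921 to 3.80 CPM on the control diet (median 1.27). The lowest high-fat diet libraries were at control level, and 8 exceeded the highest control library, replicate 11. Its log2 fold change was 2.34 ± 0.43 (SE; adjusted p = 0.000126, edgeR; permutation p = 0.00012) and 1.80 without high-fat diet replicate 9.

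Ltbp3, which binds latent TGF-beta and is known from bone and tooth development, was 5.22 to 46.3 CPM on the high-fat diet (median 11.6) and 1.83 to 10.1 CPM on the control diet (median 4.25). All 12 high-fat diet libraries exceeded 11 of the control libraries, and 8 also exceeded control replicate 11. The log2 fold change was 1.86 ± 0.29 (SE; adjusted p = 2.59e-05, edgeR; permutation p = 2e-05). Ltbp4, which binds mainly latent TGF-beta 1 and takes part in elastic fibre assembly, was by far the most abundant LTBP gene and overlapped widely between the diets. It was 52.1 to 129 CPM on the high-fat diet (median 87.8) and 47.7 to 99.0 CPM on the control diet (median 77.6), and its log2 fold change was 0.23 ± 0.13 (SE; adjusted p = 0.167, edgeR), with a 95% interval of -0.03 to 0.48. With library totals alone that change was 0.51 (adjusted p = 0.0114, edgeR) and was not called either.

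Some lists of cell markers also held genes called higher on the high-fat diet, and others did not. Of all tested genes 13.2% were called higher and 4.99% lower. Of the 9 markers of activated stellate cells or myofibroblasts 7 were called higher, with a summed level of 229 to 705 CPM on the high-fat diet and 55.0 to 256 CPM on the control diet. All 8 markers of monocyte-derived macrophages were called higher (135 to 973 CPM against 46.3 to 165), as were 5 of the 6 tested of 7 cholangiocyte markers (32.2 to 899 CPM against 27.5 to 133) and 4 of the 9 markers of portal fibroblasts or mesothelium (16.7 to 111 CPM against 7.97 to 24.4). Hepatocyte markers showed the liver label to hold in every library, at 41880 to 96430 CPM on the high-fat diet and 90630 to 141700 CPM on the control diet, and 6 of the 8 were called lower. High-fat diet replicate 9, the library with the highest Tgfb2, Tgfb3, Ltbp2 and Ltbp3, also had the highest sums for cholangiocytes, monocyte-derived macrophages and portal fibroblasts and the lowest for hepatocytes. High-fat diet replicate 3 had the lowest sums of its diet for these non-hepatocyte lists and for activated stellate cells, and the highest for hepatocytes. Control replicate 11, the highest control library for Tgfb3, Tgfbr2, Ltbp2 and Ltbp3, had the highest control sums for activated stellate cells, portal fibroblasts, monocyte-derived macrophages and cholangiocytes. Spp1 stands in both the cholangiocyte and the monocyte-derived macrophage list and carries most of the cholangiocyte sum. Without it the cholangiocyte sum was 5.86 to 170 CPM on the high-fat diet and 5.01 to 15.9 CPM on the control diet, still highest in high-fat diet replicate 9 and control replicate 11. The macrophage sum without Spp1 was 106 to 256 CPM and 18.5 to 56.3 CPM, highest in high-fat diet replicate 12 and control replicate 6. Of the other lists, calls were made among 7 markers of other endothelium (4 higher, 162 to 238 CPM against 81.4 to 161), 8 of quiescent stellate cells (3 higher), 8 of sinusoidal endothelium (1 higher), 7 of resident macrophages (2 higher, 1 lower), 7 of T cells (0), 5 of B cells (0) and 5 of platelets (1 higher). No marker was at 0 in every library, and Gli1, Gp9 and Gp1bb were among those that had a median of 3 counts or fewer. The part of cell composition in the members' differences was not tested.

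Within the sets the members differed in how far the diets stood apart. With Xist above 1000 counts, 6 libraries against 6, the members called higher were Tgfb1, Tgfbr2 and Ltbp3, 3 of 10 against 2.91% of tested genes. With Xist below 1000 counts they were 6 of 10, namely Tgfb1, Tgfb2, Tgfb3, Ltbp1, Ltbp2 and Ltbp3, against 14.3% of tested genes. Only Ltbp3 did not overlap between the diets in the first set, where 3.48% of genes showed all high-fat diet libraries above. In the second set 6 members did not overlap, Tgfb1, Tgfb2, Tgfb3, Tgfbr2, Ltbp1 and Ltbp3, and 12.6% of genes showed this separation. For each of these the two-sided exact permutation test gave p = 0.00216, the smallest that 6 libraries against 6 allow.

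The widest gap between the sets was in Tgfb2. On the high-fat diet it lay at 0.373 to 0.897 CPM in libraries with Xist above 1000 counts and at 0.917 to 12.4 CPM in the rest. On the control diet the ranges were alike, at 0.149 to 0.769 CPM and 0.118 to 0.736 CPM. The log2 fold change was accordingly 0.30 ± 0.37 (SE; adjusted p = 0.65, edgeR) in the first set and 3.59 ± 0.68 (SE; adjusted p = 0.000856, edgeR) in the second. The difference between these, 3.28 ± 0.79 (SE; adjusted p = 0.00899, edgeR), was the only diet-by-set interaction called among the members, with the same limit of 0.01 on the adjusted p, and 4.06% of all tested genes were called. It lay close to the threshold: with single libraries left out, an alternative chosen after seeing the data, it was called in 5 of 24 fits, and without high-fat diet replicate 9 it was 2.44 with an adjusted p of 0.0118.

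Tgfb1 rose in both sets, by 0.84 ± 0.16 (SE) and 1.72 ± 0.16 on the log2 scale, with 21.03 to 29.8 CPM and 30.8 to 43.0 CPM in the high-fat diet libraries. The difference of 0.87 ± 0.23 had an adjusted p of 0.0162 (edgeR) and was not called. For Tgfb3 the difference was 1.53 (adjusted p = 0.0877), for Ltbp2 1.98 (adjusted p = 0.0539) and for Ltbp3 1.02 (adjusted p = 0.174), all with the larger fitted change in the libraries with Xist below 1000 counts. Without high-fat diet replicate 9 these differences were 0.87, 1.33 and 0.69. The receptor genes had small differences, 0.19 in Tgfbr1, 0.13 in Tgfbr2 (-0.04 without control replicate 10) and 0.22 in Tgfbr3, and none was called. Some sums of cell markers also separated the sets. On the control diet the sum for resident macrophages was 284 to 523 CPM with Xist above 1000 counts and 121 to 213 CPM with Xist below. For quiescent stellate cells it was 379 to 510 CPM and 223 to 363 CPM, and for sinusoidal endothelium 335 to 449 CPM and 207 to 331 CPM. On the high-fat diet those sums overlapped between the sets and others separated. The sum for monocyte-derived macrophages was 135 to 295 CPM with Xist above 1000 counts and 420 to 973 CPM with Xist below, and without Spp1 106 to 135 CPM and 176 to 256 CPM. The cholangiocyte sum was 32.2 to 177 CPM and 259 to 899 CPM, but without Spp1 it was 5.86 to 14.6 CPM and 13.8 to 170 CPM, so that the sets overlapped. The sum for activated stellate cells was 229 to 383 CPM and 429 to 705 CPM, and the hepatocyte sum was 74030 to 96430 CPM and 41880 to 52350 CPM. Whether the members' differences between sets follow these sums was not tested, and the sex of the mice, not labelled, cannot be told apart from any other difference between the sets.

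**Figure D2:**
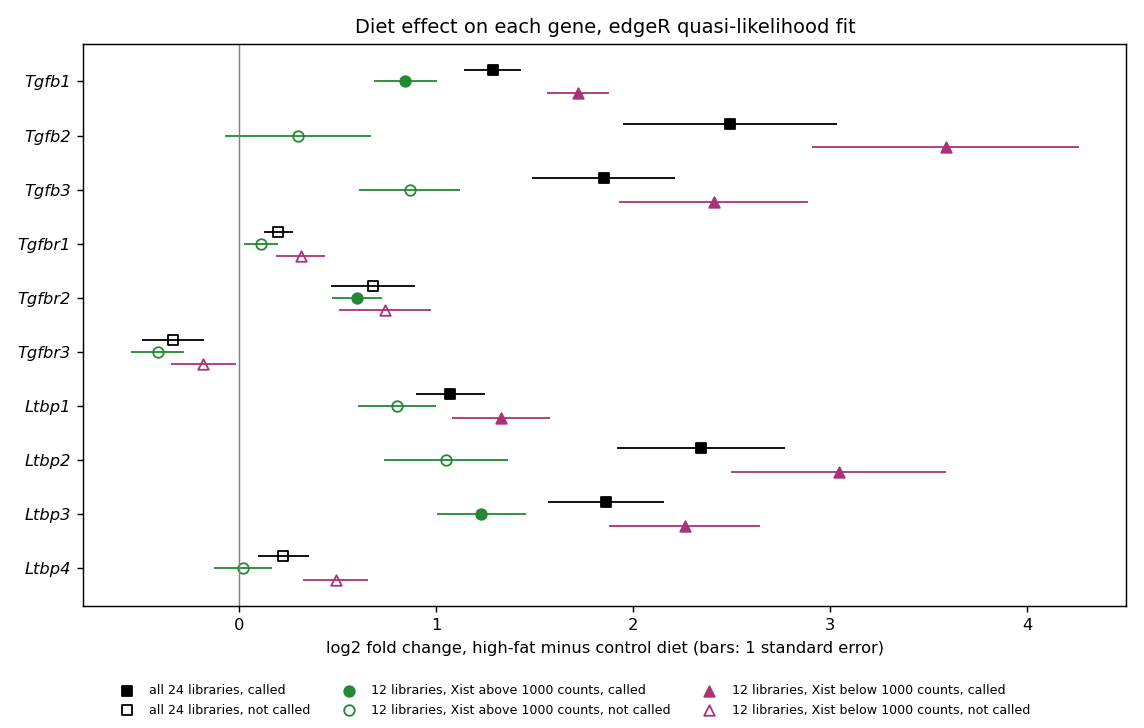
Log2 fold change of each gene between the diets (high-fat over control) from edgeR's quasi-likelihood test, in all 24 libraries and within each set of 12; points are estimates, filled where called, bars are 1 standard error to each side and the vertical line marks 0. For Tgfb2 the estimate was 0.30 with Xist above 1000 counts and 3.59 with Xist below, and Tgfb1 and Ltbp3 were called in both sets.

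Levels were compared between genes per kilobase of exon (RPKM over the union of exons). On the control diet the order was Ltbp4 at 11.6 ± 2.68 RPKM (SD, n = 12), Tgfbr2 at 4.50 ± 1.93, Tgfbr1 at 4.29 ± 0.572, Tgfb1 at 2.51 ± 0.730, Tgfbr3 at 2.33 ± 0.785, Ltbp3 at 0.480 ± 0.233, Tgfb3 at 0.413 ± 0.160, Ltbp1 at 0.314 ± 0.111, Ltbp2 at 0.199 ± 0.106 and Tgfb2 at 0.0659 ± 0.0383 RPKM. Neighbours were not separable throughout: Tgfbr2 was above Tgfbr1 in 6 of 12 control libraries, Tgfb1 above Tgfbr3 in 7 and Ltbp3 above Tgfb3 in 8. On the high-fat diet Tgfb1, at 6.14 ± 1.49 RPKM (n = 12), stood above Tgfbr1, at 4.94 ± 0.543, in 10 of 12 libraries, whereas on the control diet Tgfbr1 stood above Tgfb1 in 11 of 12. The other change of order was between Ltbp2, at 1.01 ± 1.19 RPKM on the high-fat diet, and Ltbp1, at 0.663 ± 0.154, which were not separable, Ltbp2 being higher in 6 of 12 libraries. Exon length bears on this order: with the longest transcript in place of the union, Tgfb1 was second in both diets by its mean, at 12.04 RPKM on the high-fat diet and 4.91 RPKM on the control diet. On the control diet it was then not separable from Tgfbr1, at 4.87 RPKM, being higher in 5 of 12 libraries.

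**Figure D3:**
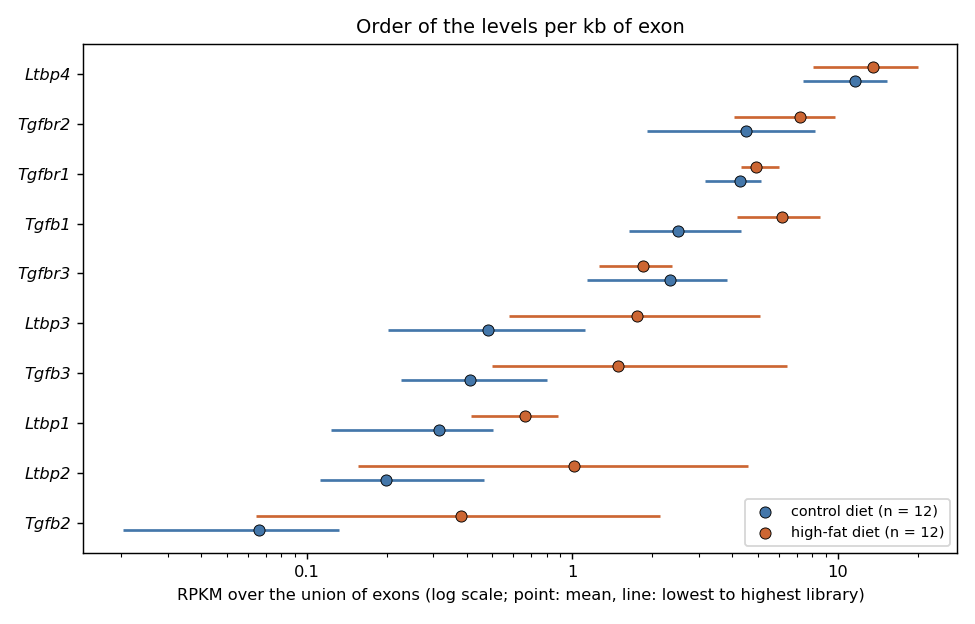
Level per kilobase of exon (RPKM, log axis) of each gene on each diet; points are means of 12 libraries and lines run from the lowest to the highest library. Ltbp4 was highest on both diets, at 13.5 and 11.6 RPKM, and Tgfb2 lowest, at 0.380 and 0.0659 RPKM.

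Within each family the makeup was described as a share of the summed RPKM, with no test. Tgfb1 made up 80.3 ± 11.2% (SD, n = 12) of the ligand RNA per kilobase in high-fat diet libraries and 83.8 ± 4.69% in control libraries, so the larger relative rises of Tgfb2 and Tgfb3 left the ligand pool mostly Tgfb1. The lowest share on the high-fat diet was 49.0%, and on the control diet 76.0%. Ltbp4 made up 92.1 ± 2.49% of the LTBP RNA on the control diet, with a range of 86.4 to 94.7%, and 81.1 ± 7.48% on the high-fat diet, with a range of 65.5 to 88.2%. Ltbp3 made up 9.74 ± 3.68% of it in high-fat diet libraries and 3.80 ± 1.53% in control libraries. Among the receptors the ratio of Tgfbr2 to Tgfbr1 was 1.46 ± 0.465 under the high-fat diet against 1.04 ± 0.421 under the control diet, and that of Tgfbr3 to Tgfbr2 was 0.302 ± 0.157 and 0.619 ± 0.338. The ratios overlapped widely between the diets.

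To see which members varied together beyond the diet and the set, the mean of each diet and set was subtracted from log2(CPM + 1) and Pearson's r was taken over the 24 libraries, as a description. The highest values were 0.86 for Tgfb2 with Tgfb3, 0.85 for Ltbp2 with Ltbp3, 0.84 for Tgfb2 with Ltbp2 and 0.83 for Tgfb3 with Ltbp2. Without high-fat diet replicate 9 these were 0.68, 0.81, 0.71 and 0.70. Next came Ltbp3 with Ltbp4 at 0.79, Ltbp2 with Ltbp4 at 0.75 and Tgfbr2 with Ltbp1 at 0.74, and the lowest was Tgfb1 with Tgfbr1 at 0.04. All pairs share the libraries, their depth and their scaling factors.

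**Figure D4:**
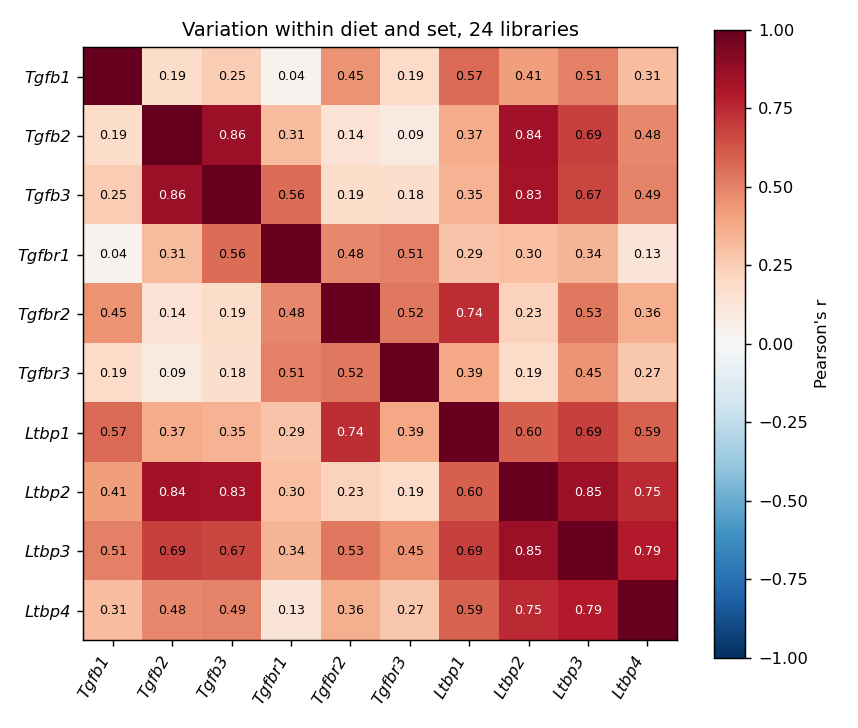
Pearson's r between the genes over 24 libraries, from log2(CPM + 1) after subtraction of the mean of each diet and set; each square is a pair and the printed number and the colour give r, from -1 (blue) to 1 (dark red). Off the diagonal the darkest squares join Tgfb2, Tgfb3, Ltbp2 and Ltbp3, with 0.86 for Tgfb2 and Tgfb3.

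By the same measure, the 3 genes most like each member were taken among genes that averaged 50 counts or more in a library. Tgfb1 was closest to the leukocyte genes Laptm5 (r = 0.87), Plcg2 (0.86) and Myo1g (0.85). Tgfb2 was closest to Krt19 (0.93), Adam33 (0.92) and Krt7 (0.91), of which the keratin genes mark cholangiocytes, and Tgfb3 to Spint1 (0.92), Krt19 (0.91) and Ezr (0.91). Without high-fat diet replicate 9 Krt19 had r = 0.82 with Tgfb2 and 0.80 with Tgfb3. The LTBP genes had other neighbours: Ltbp2 was closest to Mxra8 (0.92), Cryab (0.90) and Slc4a3 (0.89), Ltbp3 to Mxra8 (0.95), the proteoglycan gene Bgn (0.94) and Scarf2 (0.94), and Ltbp1 to P2ry6 (0.84), Ppp1r9b (0.82) and Cygb (0.82), a globin gene of stellate cells. Ltbp4 was closest to ENSMUSG00000118669, an ID with no symbol in GENCODE M21 (0.93), Gpr153 (0.89) and Bgn (0.87). For Tgfbr2 the closest were Wwtr1, the gene of the transcriptional coactivator TAZ (0.90), the thrombin receptor gene F2r (0.87) and Fbf1 (0.87). Without control replicate 10 the first and last of these fell to 0.75 and 0.69. Tgfbr1 with Cd2ap (0.78), Gmps (0.73) and Gnl2 (0.72) and Tgfbr3 with Raver1 (0.78), Tacc1 (0.76) and Slc36a4 (0.74) had weaker neighbours.

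Other genes of the pathway were taken from 6 written lists and are described by counts and medians. Of all tested genes 13.2% were called higher and 4.99% lower, with a median log2 fold change of -0.03. In the list of latency and activation, 5 of 10 genes were called higher and 0 lower, with a median log2 fold change of 1.13. They were Nrros, which anchors latent TGF-beta on macrophages and microglia (1.04 on the log2 scale, adjusted p = 1.98e-06, edgeR), the activator thrombospondin 1 gene Thbs1 (2.01, adjusted p = 3.22e-06), the fibrillin genes Fbn1 (1.46, adjusted p = 4.45e-05) and Fbn2 (4.69, adjusted p = 9.29e-05), and Emilin1, whose protein holds back the processing of pro-TGF-beta (1.22, adjusted p = 6.33e-07). Fbn2 was at 0.0321 CPM on average in control libraries, below the level of 3 counts. The most abundant gene of the list, Furin, the protease that cleaves the ligand pro-proteins, was at 339 ± 30.0 CPM (SD, n = 12) on the high-fat diet against 391 ± 66.1 CPM on the control diet and was not called.

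Among 8 tested accessory receptors and ligand-binding proteoglycans, 4 were called higher and 0 lower, with a median of 0.59. These were Acvrl1, the type I receptor ALK1 of endothelium (1.14, adjusted p = 1.54e-05, edgeR), and the small proteoglycans Dcn (0.65, adjusted p = 0.000389), Bgn (1.21, adjusted p = 1.83e-05) and Fmod (2.07, adjusted p = 0.000153), which can bind TGF-beta. Of the 14 Smads and signal regulators 2 were called higher, a share near the 13.2% of all tested genes, and 0 lower, and the median was -0.11. They were Tgif1, a corepressor of Smad complexes (0.60, adjusted p = 1.16e-05), and Pmepa1, a target that feeds back on Smad signalling (1.52, adjusted p = 4.54e-05). No Smad gene of the list passed both thresholds. Smad4 (-0.36, adjusted p = 7.54e-05, edgeR) and Smad2 (-0.25, adjusted p = 0.0028) were lower and met the limit on the adjusted p, but not that on the fold. The same held for Smurf2 (-0.42, adjusted p = 1.48e-05) and Zfyve9 (-0.33, adjusted p = 0.00517). The most abundant of the list, the phosphatase gene Ppm1a, was at 116 CPM on the high-fat diet and 132 CPM on the control diet.

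Of the 14 response genes 7 were called higher and 0 lower, with a median of 0.86. Among them were Tgfbi (1.01, adjusted p = 1.17e-06, edgeR), Timp1 (3.62, adjusted p = 3.61e-06), Col1a1, Postn (1.22, adjusted p = 0.0018), the cell-cycle inhibitor gene Cdkn1a (2.18, adjusted p = 9.21e-05) and Pmepa1, which is in the preceding list as well. Timp1, Col1a1 and Postn also stand among the markers of activated stellate cells, so the lists are not independent. Fn1, the fibronectin gene and the most abundant of the list, was not called: it was at 1181 ± 374 CPM (SD, n = 12) on the high-fat diet against 1697 ± 423 CPM on the control diet. The fitted change was above 0 for 10 of the 14 genes. It was below 0 for Fn1 (-0.52, adjusted p = 0.0122, edgeR), Id1 (-0.80, adjusted p = 0.0131), Smad7 (-0.49, adjusted p = 0.011) and Skil (-0.04, adjusted p = 0.81), none of them called.

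Receptors and ligands of the neighbouring activin and BMP branches were set beside the members. Of 8 tested activin and BMP receptor genes 0 were called higher and 2 lower, the activin type II receptor genes Acvr2a (-0.63, adjusted p = 0.000657, edgeR) and Acvr2b (-0.87, adjusted p = 0.00346), and the median was -0.45. Of 16 tested activin, BMP and GDF ligand genes 4 were called higher, Inha (1.44), Inhbb (0.76), Gdf10 (0.94) and Gdf15 (0.91), and 2 lower, Bmp2 (-0.68), a BMP ligand of liver endothelium, and Bmp1 (-0.76), which despite its name encodes a procollagen protease. The median of that list was 0.08. In these lists, as in the members, no type I or type II receptor gene other than Acvrl1 was called higher in the fit reported. Tgfbr2 (0.68, adjusted p = 0.0134, edgeR) lay near the threshold and was called under several other settings.

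**Figure D5:**
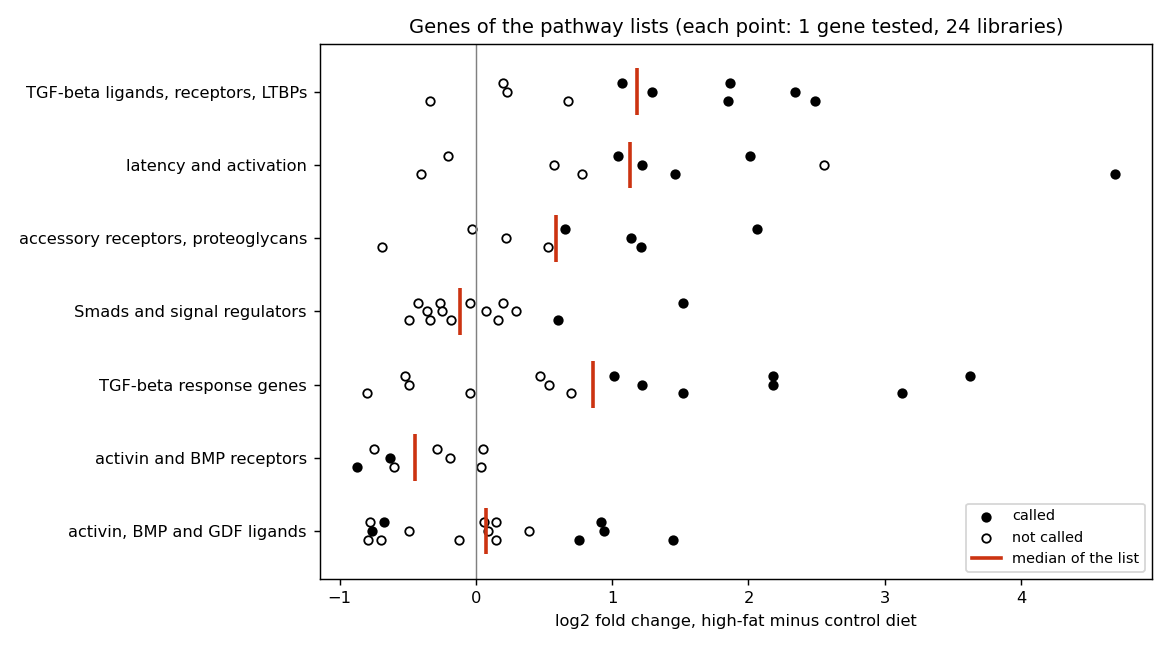
Log2 fold change between the diets (high-fat over control, edgeR) of each tested gene of the 10 members and the 6 pathway lists; each point is a gene, filled where called, and the bar is the median of the list. The medians were 1.18 for the members, 1.13 for latency and activation and -0.45 for activin and BMP receptors, and the median of all tested genes was -0.03.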

How the data were processed

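Poly(A) RNA of 24 whole-liver samples was sequenced. The deposited table holds raw whole-number counts for Ensembl gene IDs. The submitters' processing notes name bcl2fastq, STAR 2.7.3a and mm10, and the annotation and strand setting of the counting are not given in the sources used here. Symbols and exon lengths were taken from GENCODE M21, which named 51745 of 56205 IDs; the other 4460 held 0.0723% of counts. Groups came from the labels. The members, lists, markers and alternatives were chosen with earlier results of these data known.

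Counts were TMM-scaled and fitted in edgeR 4.0.16 (R 4.3.3) by quasi-likelihood with diet as the only term, with Benjamini-Hochberg adjustment over 17913 genes detected (1 count or more) in 12 or more libraries. SE is the absolute log2 fold change over the square root of F. The adjusted p for a call could not exceed 0.01, and the log2 fold change had to be over 0.5 in size (no limit on size for interactions). The sets (Xist above or below 1000 counts) were fitted apart and in an interaction. Permutation tests were two-sided, with 100000 resamples, exact for 6 against 6. The fits were tested on simulated data. Depth was 14468418 to 22112552 counts per library, and a level near 3 counts carries a large counting error. No libraries of a diet were alike within sampling noise. Named genes were the members, the genes called and the most abundant gene of each pathway list, and the 3 genes most like each member. Some pathway genes whose fitted change was below 0 were named as well. Xist and Ddx3y were named for the sets. The results of some other genes are not reported here. Promoters were those of RefSeq. Alternatives were DESeq2 1.42.0, limma-voom (limma 3.58.1), other scalings, filters and thresholds, the set as covariate, a replicate block, the longest transcript for lengths, and each library left out; leaving out libraries in the interaction was chosen after seeing the data.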

Additional observations from a re-analysis of the deposited data

Results flagged for a closer look

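The diet effect on Tgfb2 differed between the sets of libraries: the log2 fold change in libraries with Xist below 1000 counts exceeded that in libraries with Xist above 1000 counts by 3.28 (adjusted p = 0.00899, edgeR's quasi-likelihood test of the interaction term). An interaction was called for 4.06% of all tested genes. All 6 high-fat diet libraries with Xist below 1000 counts lay above all 6 control libraries of that set, as was so for 12.6% of genes tested there. The control counts are low, 2 to 16 per library, and the result lay near its threshold. Over the 24 fits that each leave out a library, the adjusted p was 0.00319 to 0.0212 (edgeR) and the difference 2.44 to 3.75. It was called in 5 of those fits. Marker sums of monocyte-derived macrophages, activated stellate cells and hepatocytes separated the same sets on the high-fat diet, as did that of cholangiocytes with Spp1 but not without it, and their part was not tested.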

How the results depend on the processing

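Of the 10 members 6 were called higher in the fit reported, against 13.2% of all tested genes. In the libraries with Xist above 1000 counts alone 3 of 10 were called higher, against 2.91%. With edgeR's own filter, which removed Tgfb2, 5 members were called higher, against 1957 of 13567 genes. With the limit on the adjusted p at 0.05 and none on the fold it was 8 (Tgfbr1 and Tgfbr2 added), against 3709 of 17913 genes. With each library left out in turn 6 to 7 were called higher, against 2188 to 2468 of 17913 genes. Of the members, 0 were called lower in any of these or in the other alternatives. With Xist above 1000 counts alone, Tgfb2 (0.30), Tgfb3 (0.87), Ltbp1 (0.80) and Ltbp2 (1.05) kept their direction and were not called, with adjusted p of 0.65, 0.0349, 0.0148 and 0.0359 (edgeR). Tgfb2 was not called with limma-voom (1.82, adjusted p = 0.0118) and was removed by edgeR's own filter and by a minimum of 10 counts in every library. Tgfbr2 was called with DESeq2 (0.70, adjusted p = 0.00474), limma-voom (0.72, adjusted p = 0.00961), library totals (0.99, adjusted p = 0.00152) and the minimum of 10 counts (0.74, adjusted p = 0.00871), and without high-fat diet replicate 3 or control replicate 7, 11 or 12 (0.73 to 0.79). The diet effect of no member reversed its direction under any alternative run. The members with a called interaction numbered 1, 0 where edgeR's filter removed Tgfb2, 2 with library totals (Tgfb1 and Tgfb2) and 0 to 2 with each library left out; over all genes 4.06%, 5.98% and 7.44% were called in the first 3 of these fits. An unadjusted p under 0.05 (edgeR) was found for 5 of the 10 members in the fit reported, Tgfb2 among them, against 23.9% of all genes, and for 4 members with edgeR's filter, against 27.7%.

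The calls over all genes, 2372 higher and 894 lower, became 3827 and 226 with library totals, so that 94.4% rather than 72.6% of calls were higher and the median log2 fold change was 0.26 rather than -0.03. They were 3709 and 3388 with the limit on the adjusted p at 0.05 and none on the fold, 1690 and 216 at an absolute log2 fold change over 1, 1226 and 604 with the minimum of 10 counts, 525 and 162 in the libraries with Xist above 1000 counts alone, and 2596 and 1430 in those with Xist below. With the replicate number as a block 6 members were called higher, against 2063 of 17913 tested genes. Tgfbr2 (0.72, adjusted p = 0.00158, edgeR) took the place of Tgfb2 (1.73, adjusted p = 0.0165). Libraries of the same number, which share a set, correlated at -0.0653 to 0.631 after subtraction of the diet mean, but the best match of most had another number. After subtraction of the mean of each diet and set the range was -0.306 to 0.353. No pairing was assumed.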
